A study of Mus musculus with 60 samples.

Results

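The 7 genes Trem2, Tyrobp, Apoe, Cst7, Clec7a, Spp1 and Itgax were read across 3 brain regions, tumor status and time of day. They were chosen by gene symbol, and all 7 were found among the 770 genes of the nanoString nCounter Mouse Neuroinflammation Panel. Female Balb/C mice carried tumors grown from 67NR, 1 non-metastatic mouse mammary carcinoma cell line, which was injected into the inguinal mammary glands. Controls received the DMEM vehicle alone. Mice were 13 weeks old in the labels. Brains were collected on day 25, following perfusion with phosphate-buffered saline, either in the middle of the dark phase (mid-dark, ZT19) or of the light phase (mid-light, ZT7), so that tumor mice and controls shared the injection, the perfusion and both collection times. Hippocampus (HPC), hypothalamus (HYP) and brain stem (BS) of each of 20 mice were assayed separately. Values of 56 of 60 samples were used, 20 of HPC, 17 of HYP and 19 of BS. Each region held 5 mice per group, except vehicle mid-dark with 3 mice in HYP and 4 in BS, and vehicle mid-light with 4 mice in HYP.

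Microglia are the resident macrophages of the brain. Trem2 is a surface receptor of microglia that binds lipids, lipoproteins and cell debris, and Tyrobp (DAP12) is the adaptor through which it signals to the kinase Syk. Around plaques, in demyelination and in aging, microglia lower genes of the resting state and raise a set that includes Apoe, Cst7, Clec7a, Spp1 and Itgax, the later part of which depends on Trem2. Apoe is a lipid carrier made mostly by astrocytes in the healthy brain, and Spp1 (osteopontin), a secreted matrix protein, is also made by some neurons, so that neither is particular to microglia in whole tissue. Cst7 (cystatin F) is an inhibitor of lysosomal proteases, Clec7a (dectin-1) a receptor for fungal glucans, and Itgax the integrin chain CD11c. In whole-tissue RNA, fewer cells of a type and less RNA per cell cannot be told apart.

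Trem2 lies on chromosome 17 at 48346401 to 48352276, Spp1 on chromosome 5 at 104435111 to 104441053, Clec7a on chromosome 6 at 129461591 to 129472785, Cst7 on chromosome 2 at 150570415 to 150578944, and Tyrobp, Apoe and Itgax on chromosome 7 at 30413782 to 30417582, 19696244 to 19701310 and 128129526 to 128150657 (RefSeq, GRCm38.p6). Promoter windows of 300 bases, 250 before the transcript start and 50 from it on, were taken from RefSeq on the same build. The windows at the RefSeq gene starts of Trem2, Spp1, Clec7a and Cst7 are printed because the levels of these genes differed between regions and the start of the window could be tied to the gene's own start. Capitals mark GAGGAA or its reverse complement TTCCTC, the core that the macrophage factor PU.1 binds.
Trem2, chr17:48346151-48346450, plus strand: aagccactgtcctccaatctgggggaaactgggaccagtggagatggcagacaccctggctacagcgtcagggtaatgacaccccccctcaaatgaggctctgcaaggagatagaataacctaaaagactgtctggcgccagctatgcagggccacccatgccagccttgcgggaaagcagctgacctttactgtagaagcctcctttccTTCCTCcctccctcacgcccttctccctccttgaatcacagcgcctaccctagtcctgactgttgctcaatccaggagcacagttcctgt
Spp1, chr5:104434861-104435160, plus strand: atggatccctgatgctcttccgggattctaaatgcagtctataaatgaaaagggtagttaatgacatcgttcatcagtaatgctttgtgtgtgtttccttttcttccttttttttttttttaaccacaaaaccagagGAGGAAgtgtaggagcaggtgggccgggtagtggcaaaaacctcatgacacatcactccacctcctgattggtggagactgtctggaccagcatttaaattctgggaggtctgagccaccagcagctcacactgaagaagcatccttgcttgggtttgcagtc
Clec7a, chr6:129472736-129473035, minus strand: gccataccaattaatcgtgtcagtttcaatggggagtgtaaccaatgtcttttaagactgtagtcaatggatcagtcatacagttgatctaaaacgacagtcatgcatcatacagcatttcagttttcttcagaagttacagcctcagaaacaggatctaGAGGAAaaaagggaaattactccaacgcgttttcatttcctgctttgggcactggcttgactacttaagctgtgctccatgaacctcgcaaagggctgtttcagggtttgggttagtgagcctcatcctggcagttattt
Cst7, chr2:150570165-150570464, plus strand: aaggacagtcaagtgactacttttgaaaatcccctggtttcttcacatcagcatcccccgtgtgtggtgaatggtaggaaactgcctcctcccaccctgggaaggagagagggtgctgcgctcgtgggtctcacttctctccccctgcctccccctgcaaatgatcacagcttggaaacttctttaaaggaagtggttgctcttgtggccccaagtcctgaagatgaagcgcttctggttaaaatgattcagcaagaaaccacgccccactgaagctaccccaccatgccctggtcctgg
The core occurred once in the windows of Trem2, Spp1 and Clec7a, starting at -40, -113 and -90 bases from the transcript start, and not in that of Cst7. Of all 32851 promoter windows, 28.3% held it on either strand. GGAAGT, which overlaps the core in the Spp1 window, was found in the windows of Spp1 and Cst7 and in 23.8% of all windows, and TATAAA on either strand in that of Spp1 and in 13.6% of all windows. These matches describe letters only and were not tested as binding sites.

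The values are on a log2 scale and come without counts, and the sampling depth is therefore not known. After the quantile normalization of the authors, the 56 samples drew on the same 770 distinct values, from -0.37 to 15.36, so that a value stands for a gene's place in its sample. Sample medians ran from 8.07 to 8.09. Trem2 ranked between 341 and 460 and Tyrobp between 236 and 319 of 770, where moving by 1 place was worth about 0.015 and 0.009 log2. Apoe ranked between 3 and 9, where 1 place was worth about 0.12 log2. Cst7, Clec7a and Itgax ranked between 588 and 766, near the bottom of the panel. Kdm5d and Uty are Y-linked, and these female mice lack both genes. Their probes read a median of 3.97 over the 56 samples, and Clec7a stood above both in 29 samples, Itgax in 24 and Cst7 in 15. Trem2, Tyrobp, Apoe and Spp1 stood above both in all 56 samples. The 260/280 purity ratio of the RNA, as labelled, was between 1.79 and 2.04 in HPC and HYP, but in BS it was 1.34 to 1.99 in tumor mid-dark mice, 1.51 to 1.97 in tumor mid-light mice, 1.95 to 2.01 in vehicle mid-dark mice and 1.72 to 1.99 in vehicle mid-light mice. The choroid plexus gene Ttr ranged from 5.36 to 14.71 among HPC samples and from 6.49 to 13.77 among BS samples, against 4.33 to 5.34 in HYP. Against the other 2 regions, all 10 oligodendrocyte genes were higher in BS, and 7 of 9 neuronal genes were higher in HPC than in HYP.

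**Figure D1:**
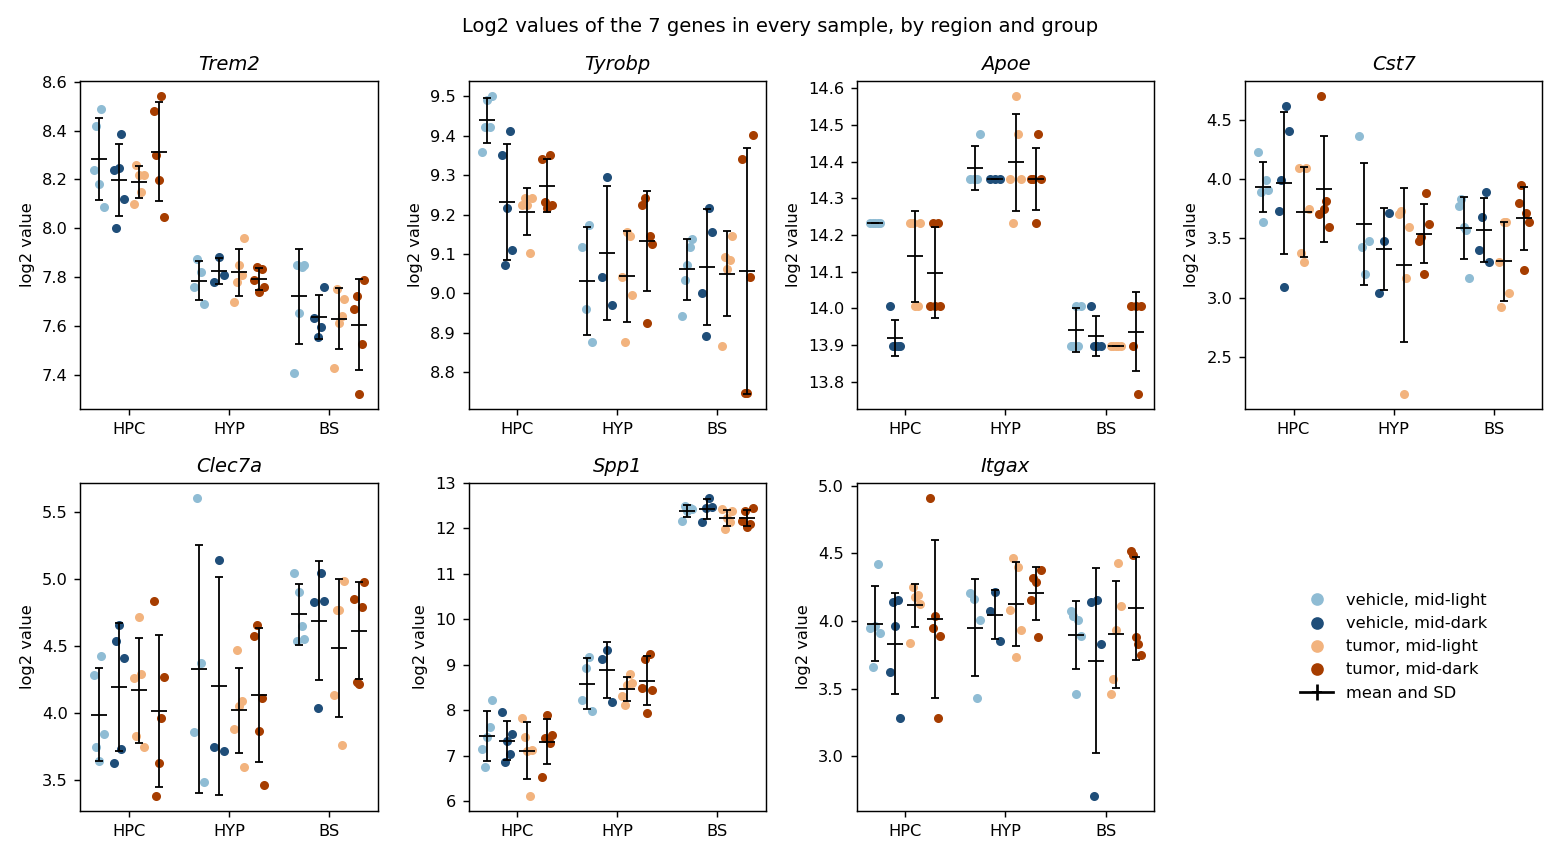
Log2 values (y axis, one scale per gene) of the 7 genes in HPC, HYP and BS (x axis), with one point per sample, colors for the 4 groups and bars for the group mean and SD. Trem2 in HPC (8.00 or above) lies clear of HYP and BS, which overlap, and Spp1 in BS (11.99 or above) lies clear of HPC and HYP, which overlap, whereas the 4 groups of a region overlap for most genes.

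The first comparison asked how the levels of the 7 genes differed between regions. Region differences were estimated over the 4 groups of all 56 samples with limma, with the mouse as a block and Benjamini-Hochberg adjustment over 770 genes. Of the 7 genes, 3 were higher and 2 lower in HPC than in HYP, where 30.3% of all panel genes were higher and 41.4% lower. In HPC against BS, 4 were higher and 2 lower, where 34.9% and 41.7% of all genes were. In HYP against BS, 2 were higher and 2 lower, against 36.1% and 30.4%. Most panel genes thus differed between regions, and the count of 7 genes is read against these shares.

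Trem2, the receptor, was highest in HPC and lowest in BS. Its log2 values ran from 8.00 to 8.54 in HPC (median 8.23, n = 20), from 7.69 to 7.96 in HYP (median 7.81, n = 17) and from 7.32 to 7.85 in BS (median 7.65, n = 19). HPC did not overlap with either of the other regions, while HYP and BS overlapped. Trem2 was 0.44 ± 0.043 log2 (SE) higher in HPC than in HYP (1.36-fold, limma adjusted p = 6.16e-13), and was higher in 17 of 17 mice with both regions. HPC exceeded BS by 0.60 ± 0.041 (1.51-fold, limma adjusted p = 2.50e-18), in 19 of 19 mice. HYP exceeded BS by 0.16 ± 0.043 (limma adjusted p = 0.0013), in 13 of 16 mice; in vehicle mice alone the difference was 0.13 and did not pass (limma adjusted p = 0.125).

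Tyrobp, the adaptor, was higher in HPC than in either other region, by less than Trem2. Values were 9.07 to 9.50 in HPC (median 9.24), 8.88 to 9.29 in HYP (median 9.12) and 8.75 to 9.40 in BS (median 9.07), and all regions overlapped. The HPC level was 0.21 ± 0.045 above HYP (limma adjusted p = 4.98e-05) and higher in 14 of 17 mice, and 0.23 ± 0.043 above BS (limma adjusted p = 6.14e-06) and higher in 16 of 19 mice. HYP and BS differed by 0.02 ± 0.046, which did not pass (limma adjusted p = 0.772).

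Apoe took its highest values in HYP. It ran from 14.23 to 14.58 there, from 13.90 to 14.23 in HPC and from 13.77 to 14.01 in BS. HYP did not overlap with BS, and met HPC at the single value 14.23. The HPC level was -0.27 ± 0.029 log2 against HYP (limma adjusted p = 7.80e-12), and HYP was higher in 16 of 17 mice, with the remaining mouse at the same value. HYP exceeded BS by 0.45 ± 0.029 (1.36-fold, limma adjusted p = 1.34e-18), in 16 of 16 mice, and HPC exceeded BS by 0.17 ± 0.028 (limma adjusted p = 2.12e-07), in 12 of 19 mice with 7 at the same value. These differences amount to moves among ranks 3 to 9 of the panel. The astrocyte genes of the panel moved with Apoe between HPC and HYP, where 8 of 9 were lower in HPC (median -0.49). Between HPC and BS most went against Apoe, with 6 of 9 lower in HPC (median -0.47). Between HYP and BS they went both ways, and most of those that passed were lower in HYP. S100b was -1.39 ± 0.041 and Kcnj10 -0.46 ± 0.033 for HYP against BS, while Slc1a3 was 1.00 ± 0.063 and Gdpd2 0.61 ± 0.049. Their part in the Apoe level was not tested.

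Spp1 showed the largest region difference of the 7 genes. Its values were 6.11 to 8.22 in HPC (median 7.35), 7.94 to 9.33 in HYP (median 8.54) and 11.99 to 12.67 in BS (median 12.39). BS stood clear of both other regions, and HPC and HYP overlapped. The HPC level was -5.02 ± 0.13 against BS, a 32.5-fold difference (limma adjusted p = 2.50e-35), and BS was higher in 19 of 19 mice. HYP was -3.67 ± 0.14 against BS (12.7-fold, limma adjusted p = 9.20e-28), lower in 16 of 16 mice, and HPC was -1.35 ± 0.14 against HYP (2.55-fold, limma adjusted p = 1.91e-12), lower in 16 of 17 mice. The 10 oligodendrocyte genes were higher in BS as well, with a median of -1.38 for HPC against BS; the part of any cell type in the Spp1 level was not tested.

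The other 3 genes lie near the bottom of the panel. Cst7 had medians of 3.85 in HPC, 3.48 in HYP and 3.64 in BS. It stood above both Y-linked probes in 12 of 20 HPC, 3 of 17 HYP and 0 of 19 BS samples. Its region differences are thus between values at or below probes for absent genes in many samples. Cst7 was 0.43 ± 0.12 higher in HPC than in HYP (limma adjusted p = 0.00176) and 0.35 ± 0.12 higher than in BS (limma adjusted p = 0.00695). Clec7a ran the other way, with medians of 4.11 in HPC, 4.05 in HYP and 4.77 in BS. Its HPC level was -0.55 ± 0.15 against BS (limma adjusted p = 9.18e-04) and its HYP level -0.47 ± 0.16 against BS (limma adjusted p = 0.00801), the latter not passing among samples with a 260/280 ratio of at least 1.8 (limma adjusted p = 0.0988) or among vehicle mice alone (limma adjusted p = 0.141). The Y-linked Kdm5d and Uty moved in the same direction, at -0.90 ± 0.15 and -1.91 ± 0.27 for HPC against BS; their part in the Clec7a difference was not tested. Itgax, with medians of 3.96, 4.15 and 3.93 in HPC, HYP and BS, passed in no pair of regions, and its differences were -0.08 ± 0.12 for HPC against HYP, 0.08 ± 0.11 for HPC against BS and 0.16 ± 0.12 for HYP against BS.

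Genes of resting microglia moved between regions alongside Trem2. Of the 12 homeostatic microglia genes on the panel, 11 were higher in HPC than in HYP and 10 in HPC than in BS, with medians of 0.33 and 0.41 log2, whereas the median over all panel genes was -0.05 and -0.03. P2ry12, a purine receptor, was 0.52 ± 0.041 higher in HPC than in HYP and 0.72 ± 0.039 higher than in BS, and the scavenger receptor homolog Fcrls 1.40 ± 0.056 and 1.60 ± 0.054 higher. When the mean of these 12 genes was subtracted from each sample, which moved every gene by -0.47 in both comparisons with HPC, the Trem2 difference between HPC and HYP was -0.03 ± 0.035 (limma adjusted p = 0.393). On this scale Trem2 kept 0.13 ± 0.033 of its excess in HPC over BS (limma adjusted p = 4.88e-04), and Tyrobp turned to -0.26 ± 0.038 against HYP and -0.24 ± 0.036 against BS (limma adjusted p = 2.24e-08 and 3.74e-08). Apoe turned to -0.30 ± 0.031 in HPC against BS (limma adjusted p = 1.88e-12), and Cst7 to -0.04 and -0.12 against HYP and BS, neither of which passed. Any positive difference below 0.47 turned negative in this way by construction. Spp1 kept its direction in all 3 pairs, and the differences between HYP and BS moved by less than 0.01 log2 for each of the 7 genes.

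**Figure D2:**
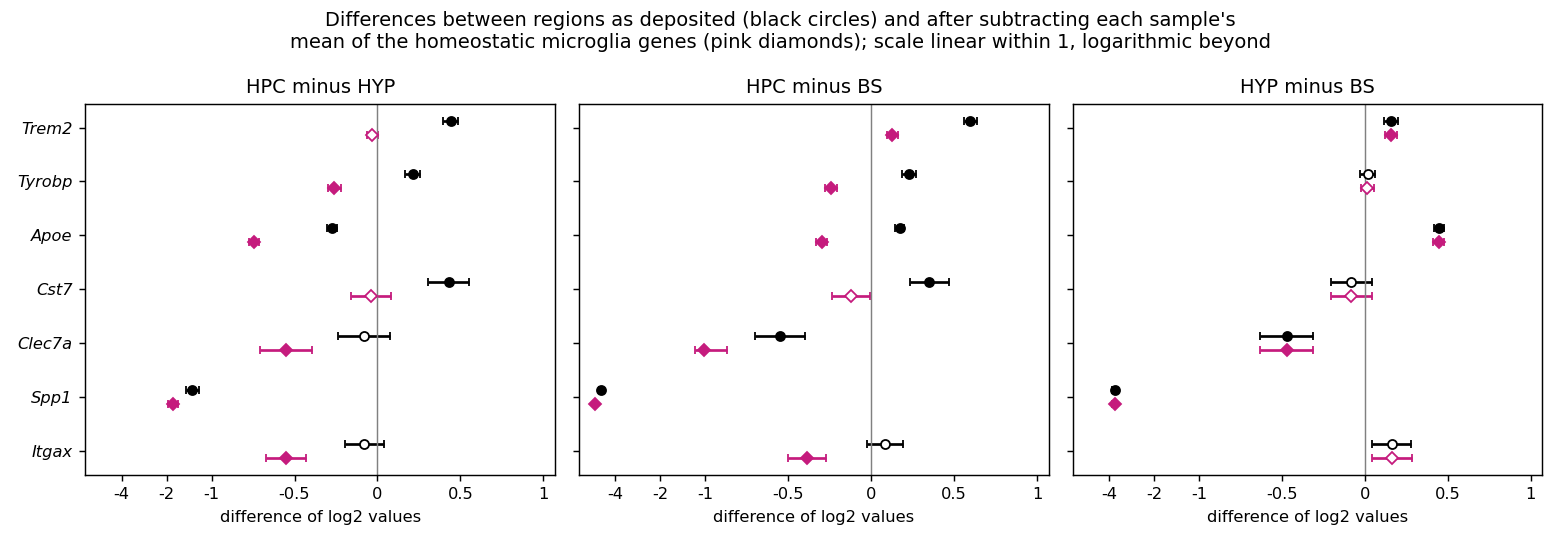
Differences of log2 values between regions (x axis, linear within 1 and logarithmic beyond) for the 7 genes (y axis), as deposited (black circles) and after each sample's mean of 12 homeostatic microglia genes was subtracted (pink diamonds), with bars for the SE and filled symbols for an adjusted p under 0.05. Both scales give nearly the same HYP against BS differences, while in comparisons with HPC the pink diamonds lie 0.47 to the left. They lie across 0 for Tyrobp and Cst7 in both comparisons, for Trem2 against HYP, and for Apoe and Itgax against BS.

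The other parts of the pathway were read from lists. Among 23 genes of Tyrobp-coupled receptors and Trem2 signalling, 13 were higher and 4 lower in HPC than in HYP, and likewise 13 higher and 4 lower in HPC than in BS, with medians of 0.19 and 0.22. Over all panel genes, 30.3% were higher and 41.4% lower against HYP, and 34.9% and 41.7% against BS. The kinase Syk was 0.19 ± 0.060 higher in HPC than in HYP and 0.51 ± 0.057 higher than in BS. The phospholipase Plcg2, which acts below Syk, was 0.23 ± 0.053 and 0.48 ± 0.051 higher, and the adaptor Blnk 0.81 ± 0.076 and 0.97 ± 0.073 higher. The widely expressed kinase subunits Pik3ca and Pik3r1 were among those lower in HPC, at -0.36 ± 0.026 and -0.43 ± 0.029 against HYP. Of 11 other disease-associated microglia genes, 2 were higher and 4 lower in HPC than in HYP, and 2 higher and 5 lower in HPC than in BS, which is near or below those shares. The lysosomal protein Cd68 was 0.57 ± 0.049 and 0.77 ± 0.047 higher in HPC, while the receptor kinase Axl was -0.26 ± 0.028 and -0.43 ± 0.027.

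The second comparison asked whether a mammary tumor moved the genes in the brain. None of the 7 genes passed an adjusted p of 0.05 between tumor and vehicle mice in any region, at either phase or averaged over both. Few panel genes did. Averaged over phase, 0.52% of genes passed in HPC, 0.26% in HYP and 1.04% in BS. At mid-dark the shares were 0.13% in HPC, 0% in HYP and 0.26% in BS, and at mid-light 0.13%, 0% and 0.78%. At an unadjusted p under 0.05 in limma, averaged over phase, 1 of the 7 genes passed in HPC, 0 in HYP and 1 in BS, where 6.37%, 7.14% and 6.5% of all genes did. At mid-dark 1 passed in HPC and 0 in HYP and BS, against 6.63%, 4.81% and 7.28%. At mid-light 1 passed in HPC and 0 in HYP and BS, against 6.89%, 5.19% and 4.81%. These shares are near the background, so the counts are no result about the 7 genes.

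The intervals bound what the fit of all samples of a region allows. Averaged over phase, the Trem2 difference was 0.01 log2 in HPC (95% interval -0.13 to 0.15), 0.00 in HYP (-0.09 to 0.09) and -0.06 in BS (-0.21 to 0.09). For Tyrobp it was -0.10 (-0.19 to -0.00) in HPC, 0.02 (-0.12 to 0.16) in HYP and -0.01 (-0.19 to 0.17) in BS. The BS estimate of Tyrobp changed with a filter on RNA purity. Tumor mid-dark mice 7 and 11 both read 8.75, and mice 3, 19 and 23, with a 260/280 ratio below 1.8, read 9.04 to 9.40. Among BS samples with a ratio of at least 1.8, the Tyrobp difference was -0.19 averaged over phase and -0.32 at mid-dark. Neither passed. Apoe lay within -0.10 and 0.14 in all 3 intervals. The 3 low genes, and Spp1 in HPC and HYP, were less well bounded, with intervals that reached from -0.82 for Clec7a in HYP to 0.59 for Itgax in BS. Itgax was above vehicle in 6 of 6 estimates (3 regions by 2 phases), by 0.01 to 0.39, and over the 3 regions by 0.18 ± 0.11 (limma adjusted p = 0.625). The 0.39 was BS at mid-dark, where vehicle mouse 12 read 2.70 and the other vehicle mice 3.83 to 4.15. In BS, Itgax stood above both Y-linked probes in 1 of 19 samples. Spp1 was below vehicle in 6 of 6 estimates, by -0.02 to -0.32. The 3 regions come from the same mice, so the 6 estimates of a gene are not independent and their shared sign was not tested. Phase-averaged, Spp1 was -0.17 ± 0.22 in HPC, -0.17 ± 0.23 in HYP and -0.18 ± 0.079 in BS, where the 95% interval of -0.34 to -0.01 left out 0 but the test did not pass (limma adjusted p = 0.744). Spp1 in BS of tumor mid-dark mice read 12.04, 12.09, 12.16, 12.39 and 12.44, against 12.14, 12.44, 12.46 and 12.68 in vehicle mid-dark mice, and the groups overlapped. Among BS samples with a 260/280 ratio of at least 1.8, the phase-averaged difference was -0.23 ± 0.095 (limma adjusted p = 0.561).

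**Figure D3:**
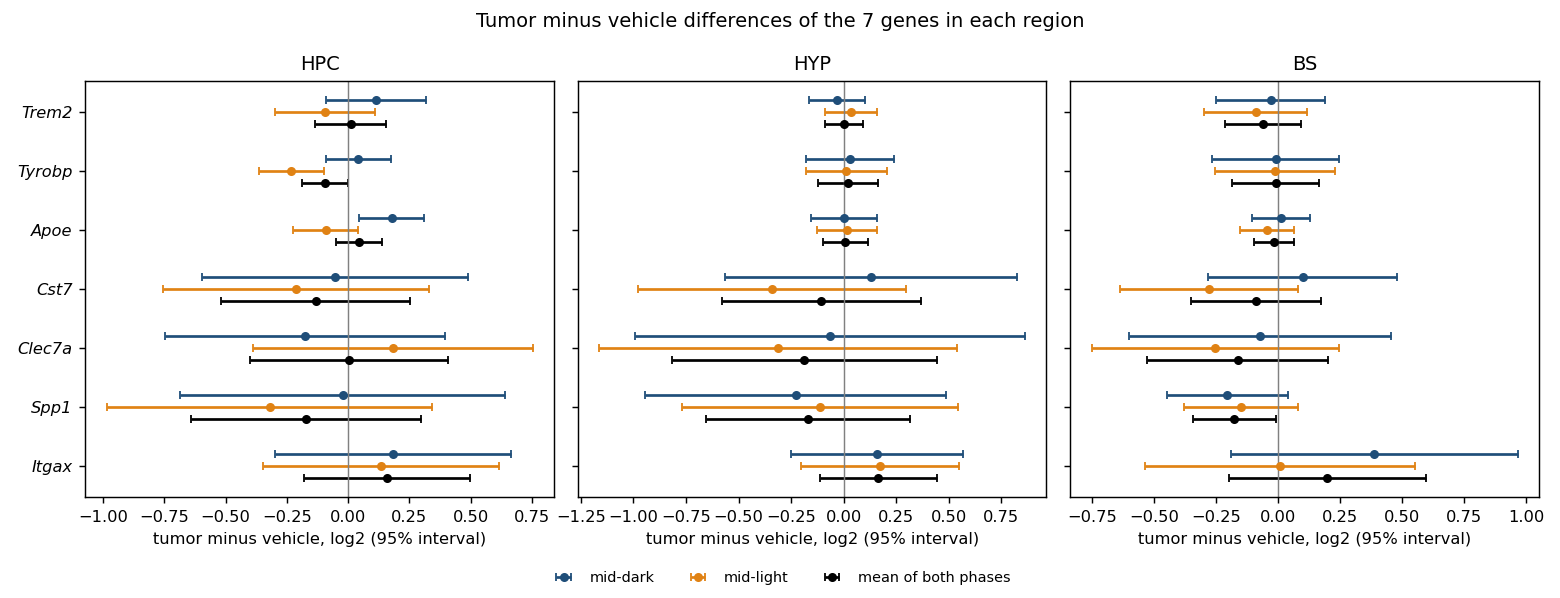
Tumor minus vehicle differences (x axis, log2) of the 7 genes (y axis) in HPC, HYP and BS at mid-dark, at mid-light and as the mean of both phases, with bars for 95% intervals of the limma fit. Of 63 intervals, 4 leave out 0 (Tyrobp in HPC at mid-light and averaged, Apoe in HPC at mid-dark and Spp1 in BS averaged), and those of Trem2, Tyrobp and Apoe are narrower than those of Cst7, Clec7a and Itgax.

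Over the 3 regions together, 0 of 7 genes passed for tumor against vehicle where 2.34% of all genes did, and at an unadjusted p under 0.05 in limma 0 passed where 9.48% did. The tumor differences were also compared between regions. None of the 7 genes, and 0% of all genes, passed for HPC against HYP, HPC against BS or HYP against BS. At an unadjusted p under 0.05 in limma, 0 of the 7 passed in each, where 5.32%, 2.21% and 2.34% of all genes did. Among the 11 other disease-associated microglia genes, Ch25h, which makes an oxysterol from cholesterol, was the only one to pass between tumor and vehicle, at 1.00 ± 0.17 in HPC (limma adjusted p = 0.00482) and 0.98 ± 0.22 in BS (limma adjusted p = 0.0274). None of the 12 homeostatic microglia genes and none of the 23 genes of Tyrobp-coupled receptors and Trem2 signalling passed in any region averaged over phase (limma, with 1 and 2 at an unadjusted p under 0.05 in HPC, 0 and 2 in HYP, and 0 and 0 in BS). Of all genes, 6.37% in HPC, 7.14% in HYP and 6.5% in BS had such an unadjusted p.

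The third comparison asked whether a tumor difference depended on time of day. No gene of the panel passed the test of the tumor by phase interaction (0% in HPC, HYP and BS). At an unadjusted p under 0.05 in limma, 2 of the 7 genes, Tyrobp and Apoe, passed in HPC, where 6.11% of all genes did, and 0 passed in HYP and BS, where 2.6% and 3.64% did. Tyrobp in HPC read 9.36, 9.42, 9.42, 9.49 and 9.50 in vehicle mid-light mice and 9.10, 9.22, 9.22, 9.24 and 9.24 in tumor mid-light mice. The mid-light groups did not overlap, and the share of panel genes whose groups also separated was not counted. At mid-dark it read 9.07, 9.11, 9.22, 9.35 and 9.41 in vehicle mice and 9.22, 9.22, 9.23, 9.34 and 9.35 in tumor mice, and these groups overlapped. The mid-light difference was -0.23 ± 0.063 (limma adjusted p = 0.261) and the mid-dark difference 0.04 ± 0.063. The interaction was 0.27 ± 0.089 (limma adjusted p = 0.509), which did not pass. The 12 homeostatic microglia genes had a median of -0.12 for the mid-light difference and 0.15 for the interaction in HPC. Of these 12 genes, 3 and 2 had an unadjusted p under 0.05 in limma, where 6.89% and 6.11% of all genes did, and 0 passed. With their mean subtracted, the Tyrobp difference at mid-light was -0.13 ± 0.060 (limma adjusted p = 0.419) and the interaction 0.18 ± 0.085 (limma adjusted p = 0.656).

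Apoe in HPC read 14.23 in all 5 vehicle mid-light mice, and 13.90 in 4 and 14.01 in 1 of the vehicle mid-dark mice. In tumor mice it read 14.01 in 3 and 14.23 in 2 at mid-dark, and 14.01 in 2 and 14.23 in 3 at mid-light. The vehicle groups did not overlap between phases, whereas the tumor groups did. Here too the share of panel genes with separate groups was not counted. The mid-dark tumor difference was 0.18 ± 0.063 (limma adjusted p = 0.547), and the interaction 0.27 ± 0.089 (limma adjusted p = 0.509).

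The last comparison was between mid-dark and mid-light. Averaged over tumor status, Apoe in HPC was -0.18 ± 0.045 at mid-dark against mid-light (limma adjusted p = 0.0244), the only one of the 7 genes to pass, where 5.59% of all genes did. In vehicle mice alone it was -0.31 ± 0.063 (limma adjusted p = 0.0104), where 2.34% of genes passed. In tumor mice alone it was -0.05 ± 0.063 and 0 of the 7 genes passed, where 1.04% of all genes did, and 0 at an unadjusted p under 0.05 in limma, where 12.4% did. Without tumor mid-light mouse 5 the phase-averaged difference was -0.17 and missed the threshold (limma adjusted p = 0.0525).

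The Apoe values of HPC took 3 places near the top of the panel. Rank 6 read 14.23, rank 7 read 14.01 and rank 8 read 13.90 in the 10, 6 and 4 HPC samples concerned. Of the genes that ranked above Apoe in some HPC samples and not in others, 3 are described here, chosen after their values were seen. Calr, an endoplasmic reticulum chaperone, ranked above Apoe in 4 of 5 vehicle mid-dark samples and 1 of 5 tumor mid-dark samples of HPC, and in 0 of 10 mid-light samples. The synaptic gene Nptx1 did so in 4 of 5 vehicle mid-dark, 2 of 5 tumor mid-dark, 1 of 5 tumor mid-light and 0 of 5 vehicle mid-light samples, and Ttr in 1 vehicle mid-dark and 1 tumor mid-light sample. Calr itself was 0.49 ± 0.068 higher at mid-dark in HPC (limma adjusted p = 2.17e-04), while Nptx1 was 0.14 ± 0.11 higher and did not pass (limma adjusted p = 0.599).

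**Figure D4:**
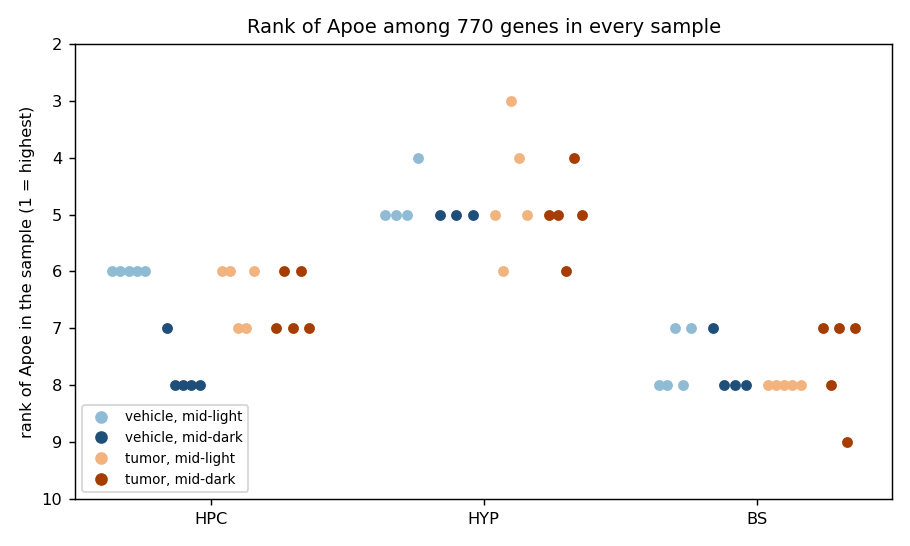
Rank of Apoe in each sample (y axis, 1 is the highest value) by region (x axis), with one point per sample colored by group, among all 770 genes. Ranks run from 6 to 8 in HPC, from 3 to 6 in HYP and from 7 to 9 in BS.

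In HYP and BS, 0 of 7 genes passed between mid-dark and mid-light, where 2.34% and 4.94% of all genes did, and at an unadjusted p under 0.05 in limma 0 passed in both, against 13.2% and 15.9%. Over the 3 regions 0 of 7 passed, where 13.5% did, and 1, Apoe, at an unadjusted p under 0.05 in limma, where 25.6% did (-0.07 ± 0.028, adjusted p = 0.0892). Trem2 was 0.02 ± 0.068 in HPC, 0.01 ± 0.042 in HYP and -0.05 ± 0.072 in BS at mid-dark against mid-light. Tyrobp in HPC of vehicle mice was -0.21 ± 0.063 (limma adjusted p = 0.0947), and without vehicle mouse 28 it was -0.25 and passed (limma adjusted p = 0.0356). Of the homeostatic microglia genes, Mertk passed in HPC (0.29 ± 0.047, limma adjusted p = 8.65e-04) and Irf8 in HYP (0.35 ± 0.077, limma adjusted p = 0.0259), and of the other disease-associated microglia genes the lipid chaperone Fabp5 passed in HPC (-0.20 ± 0.058, limma adjusted p = 0.0429).

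Last, the genes were compared across mice within groups, on deviations from the group mean. Of 63 tests (21 pairs in 3 regions), 6 had an unadjusted permutation p under 0.05 and 0 passed after Benjamini-Hochberg adjustment over the 63. Trem2 and Tyrobp, receptor and adaptor, gave a Pearson r of 0.52 in HPC (Spearman rho 0.51, n = 20, permutation p = 0.0279 and 0.0432, adjusted p = 0.293 and 0.389). Without the 2 samples farthest from the Trem2 median r was 0.54. In BS r was 0.57 (rho 0.58, n = 19, permutation p = 0.0209 and 0.0186, adjusted p = 0.293 and 0.294), and 0.43 without the 2 farthest samples. In HYP r was 0.37 (rho 0.50, n = 17, permutation p = 0.176 and 0.070, adjusted p = 0.584 and 0.441), and 0.43 without them. Trem2 deviations also went with the mean of the homeostatic microglia genes, with an r of 0.51 in HPC, 0.31 in HYP and 0.80 in BS. With that mean subtracted, the r of Trem2 and Tyrobp was 0.31 in HPC, 0.25 in HYP and 0.12 in BS. In HYP, Spp1 gave an r of 0.67 with Tyrobp (rho 0.67, permutation p = 0.016 and 0.0125, adjusted p = 0.293 and 0.294) and 0.61 with Trem2 (rho 0.68, permutation p = 0.00749 and 0.00685, adjusted p = 0.293 and 0.294), with 0.60 and 0.64 without the 2 farthest samples. Tyrobp and Clec7a gave 0.59 in BS (rho 0.62, permutation p = 0.0143 and 0.0153, adjusted p = 0.293 and 0.294; 0.51 without the 2 farthest samples), and Apoe and Clec7a -0.56 in HPC (rho -0.53, permutation p = 0.024 and 0.0281, adjusted p = 0.293 and 0.355; -0.56 without them). The tests were two-sided. In the 14 BS samples with a 260/280 ratio of at least 1.8, r was 0.45 for Trem2 and Tyrobp (permutation p = 0.0692). For Tyrobp and Clec7a it was 0.54 there (permutation p = 0.185).

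**Figure D5:**
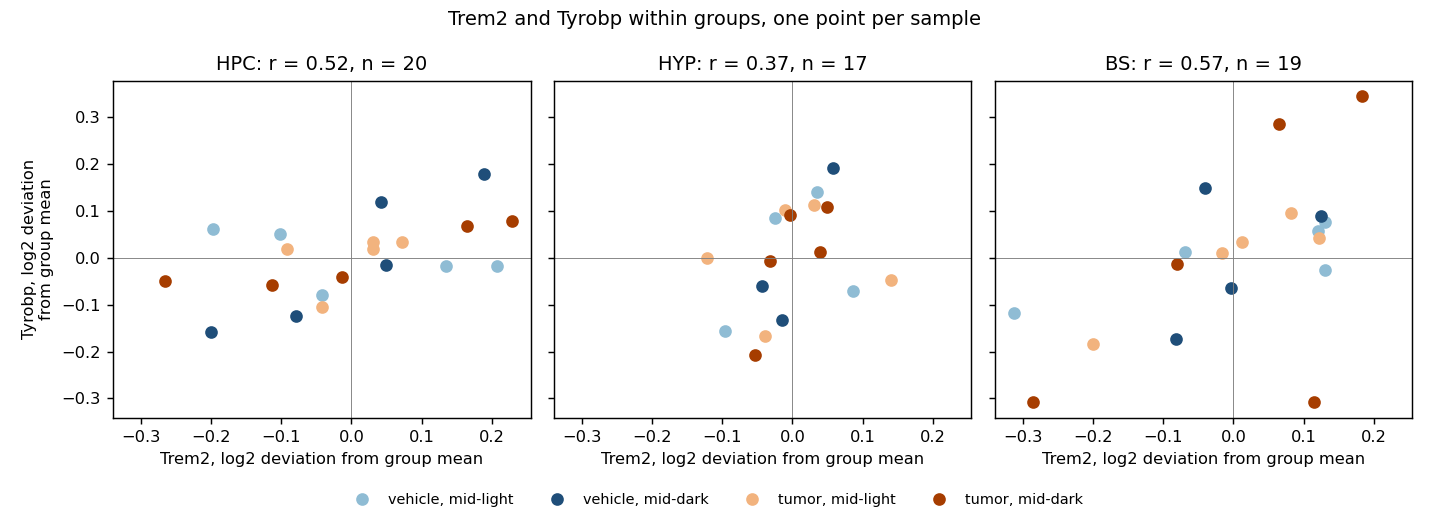
Deviation of Tyrobp (y axis) against that of Trem2 (x axis) from the group mean, in log2, with one point per sample colored by group, for HPC, HYP and BS. The points rise from left to right with r of 0.52, 0.37 and 0.57, none of which passed after adjustment.

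Over all 56 samples the genes whose deviations were most like those of Trem2 were C1qa (r = 0.62), the first part of the complement system, the microglial marker Tmem119 (0.62) and the protease Ctss (0.60). For Tyrobp they were Ctss (0.70), C1qa (0.70) and C1qc (0.69). In each region taken alone, the r values of these pairs lay between 0.41 and 0.82. For Spp1 they were Cd74 (0.68), Ifitm2 (0.67) and Sphk1 (0.67), with r for Cd74 of 0.72 in HPC, 0.78 in HYP and 0.06 in BS. For Clec7a they were Msr1 (0.47), Cd14 (0.45) and Grn (0.43), all expressed by macrophages, with r for Cd14 of 0.11 in HPC, 0.53 in HYP and 0.69 in BS. For Apoe they were Dlg1 (0.47), S100a10 (0.44) and Gria4 (0.43), and for Itgax Abcc8 (0.41), Sesn2 (0.38) and Fdxr (0.37). Some of these pairs were not alike in every region. Apoe gave an r of -0.07 with S100a10 in BS and 0.03 with Gria4 in HYP, and Itgax -0.07 with Sesn2 in HYP. Lig1 (0.46) and Tmc7 (0.45) were among the 3 most like Cst7. The samples share the normalization, and 3 regions of a mouse share the animal, so these values describe likeness only. Spp1 and Ttr gave an r of 0.44 in HPC, 0.00 in HYP and -0.10 in BS; the part of choroid plexus tissue in the Spp1 values of HPC was not tested.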

How the data were processed

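RNA from HPC, HYP and BS was assayed on the nanoString nCounter Mouse Neuroinflammation Panel. The authors subtracted negative controls and normalized to positive controls and codeset content in nSolver, left out outliers by raw data, and quantile-normalized in Partek, and deposited log2 values for 770 genes and 56 samples; no counts were used here, so depth and counting error are unknown, and a quantile step leaves mainly each gene's rank. All 56 columns were matched to samples by title, and groups came from the labels. The 7 genes and all gene lists were chosen with earlier results of these data known. In each region, limma 3.58.1 (R 4.3.3) was fitted with 4 group means, and over all regions with 12 group means and the mouse, which gave all 3 regions, as a random block (consensus correlation 0.136). The pairing comes from the labelled mouse number. P-values were adjusted by Benjamini-Hochberg over all genes tested, with a threshold of 0.05; 2 genes constant in a region were not tested there. Pairs of genes were tested by 100000 permutations of mice within groups (NumPy 2.4.6). Named were the 7 genes, the 3 genes most like each, and up to 4 genes per list and comparison with the smallest adjusted p under 0.05; some items are not reported here. Genes outside these rules (Kdm5d, Uty, Calr, Nptx1, Ttr) were chosen after their values were seen. Alternatives were ordinary p-values, a fit of just the compared groups, a floor of 5 on mean log2, sample medians or the homeostatic microglia mean subtracted, quantiles within a region, 260/280 of at least 1.8, each mouse left out and, over all regions, no block, a fixed block and vehicle mice only. The linear fits were tested on simulated data.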

Additional observations from a re-analysis of the deposited data

Results flagged for a closer look

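Of 75 groups of 4 or 5 samples tested for a sample apart from the others (Dixon's test, which chance passes in about 1 group in 20), 5 held one. Tyrobp in HPC of tumor mid-light mouse 13 was 9.10, below 9.22 to 9.24 in the other mice of the group. Cst7 in HPC of tumor mid-dark mouse 7 was 4.70, above 3.60 to 3.82. The other 3 were Apoe values 1 rank away from identical values: 14.01 against 13.90 in HPC and again in BS of vehicle mid-dark mouse 4, and 14.47 against 14.35 in HYP of vehicle mid-light mouse 30.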

How the results depend on the processing

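The number of the 7 genes past an adjusted p of 0.05 was followed in 26 results, 21 of which had a count of 0. It left the range of 1.5 times in 4 of 683 alternative runs. For mid-dark against mid-light in HPC it ranged from 0 to 1 over the fits that each left out 1 mouse, with 0 without mouse 5, and in vehicle mice alone from 1 to 2, with 2 without mouse 28. Holding Ttr as a covariate, chosen after seeing the data, changed none of these counts. For HYP against BS it was 2 in vehicle mice only, against 4. For mid-dark against mid-light over the 3 regions it was 1 with no replicate block, against 0 with the mouse block, where Apoe was -0.07 (limma adjusted p = 0.0367); the pairing changed no other call.

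Subtracting the homeostatic microglia mean moved every gene by -0.47 in both comparisons with HPC, so a positive difference below 0.47 turned sign by construction. This held for 6 region differences that had passed as deposited: Trem2 in HPC against HYP to -0.031, Tyrobp to -0.26 against HYP and -0.24 against BS, Cst7 to -0.042 and -0.12, and Apoe in HPC against BS to -0.30. Itgax in HPC against BS, which had not passed as deposited, also turned, from 0.08 to -0.39. The count for HPC against HYP was 5 on both scales, but Trem2 and Cst7 no longer passed while Clec7a and Itgax did. Of 150 differences that did not pass, 81 changed sign under some alternative, and 3 passed under 1, each a difference of Clec7a or Itgax between HPC and another region that the same shift of -0.47 enlarged or turned. A minimum mean of 5 removed Cst7, Clec7a and Itgax from the genes tested. A fit of just the compared groups was not run for averages over phase or interactions, which use all 4 groups.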
